A study of Homo sapiens with 18 samples.

Results

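Cholesterol and fatty acid synthesis was followed through 30 genes that were chosen by symbol as enzymes, regulators and carriers of these pathways, out of 40266 gene symbols in the expression table. All 30 were found and all 30 passed the filter on low values, which kept 16093 genes. The RNA-seq data came from 18 libraries of 2 established human pancreatic ductal adenocarcinoma (PDAC) cell lines in 6 groups of 3 libraries. The line Panc1, with mesenchymal-like features, was derived from the tumor in the pancreas, and the line Panc89, with epithelial features, from a metastasis in a lymph node. Each line was analyzed as parental cells, which are a mixed population, and as Holoclone and Paraclone cells, which were obtained by single-cell cloning and carry the stem cell-like and the non-stem cell-like phenotype, respectively. All groups were untreated, unmodified cells kept in the same RPMI-based medium with serum. Holoclone and Paraclone each stand for 1 clone per line, and the 3 replicates were RNA from different passages of the same cells, so that the p-values measure the spread between passages and not between clones.

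Cholesterol is built from acetyl-CoA, which is condensed and reduced to mevalonate, turned into isoprenoid units, joined to squalene and cyclized to lanosterol, from which a series of demethylases, reductases and isomerases forms cholesterol. Fatty acids are built from the same acetyl-CoA by carboxylation and chain synthesis, followed by elongation and desaturation. Both branches are controlled by the SREBP transcription factors, which SCAP escorts out of the endoplasmic reticulum when sterols are low and which INSIG proteins retain there when sterols are high. Serum in the medium supplies lipoprotein cholesterol to cultured cells, and proliferating tumor cells need both lipid classes for new membranes.

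All levels are given as log2(TPM + 1), where TPM is transcript abundance corrected for transcript length and library size, and differences as log2 fold changes on that scale. A gene was called changed when the adjusted p of the limma test over all 16093 genes was under 0.05. The 30 genes were expressed in every library, from 2.80 TPM for *ELOVL6* in a Panc1 Paraclone library to 2736 TPM for *SCD* in another one, and together they took 0.183% to 0.642% of all transcripts. Libraries of the same group correlated with r between 0.954 and 0.992 over all tested genes. The mesenchymal marker *VIM* lay at a mean of 2465 to 4318 TPM in the Panc1 groups and at most at 0.361 TPM in the Panc89 groups, while the mean of the epithelial marker *CDH1* was 75.3 to 98.0 TPM in the Panc89 groups and 0.990 to 2.84 TPM in the Panc1 groups. The other markers of the 2 lists did not all follow. Of 5 epithelial markers, 3 were higher and 1 (*KRT8*) was lower in the parental Panc89 than in the parental Panc1 cells, and their summed level overlapped, with 3327 to 3556 TPM and 2689 to 5016 TPM, respectively. Of 4 mesenchymal markers, 2 were lower and 1 (*FN1*) was higher in the parental Panc89 cells. The summed level of 3 adipocyte markers did not exceed 0.367 TPM and that of 3 hepatocyte markers 0.718 TPM in any library. Of the endothelial markers, *PECAM1* reached a mean of 60.1 TPM in the parental Panc89 cells. The summed level of 4 immune cell markers was 52.4 to 69.7 TPM in Panc1 Holoclone and 124 to 151 TPM in Panc1 Paraclone cells, and 18.7 to 25.7 TPM in Panc89 Holoclone and 36.1 to 65.9 TPM in Panc89 Paraclone cells. Most of it was *CD68*, while the leukocyte and T cell markers *PTPRC* and *CD3E* had means of at most 0.482 and 0.0201 TPM in any group. Of 4 fibroblast markers, only *COL1A1* reached a mean of 1 TPM, and their sum was 6.36 to 9.36 TPM in Panc1 Holoclone and 0.967 to 1.42 TPM in Panc1 Paraclone cells, and 9.80 to 21.2 TPM in Panc89 Holoclone and 23.4 to 26.0 TPM in Panc89 Paraclone cells. The part of these markers in the results was not tested.

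**Figure D1:**
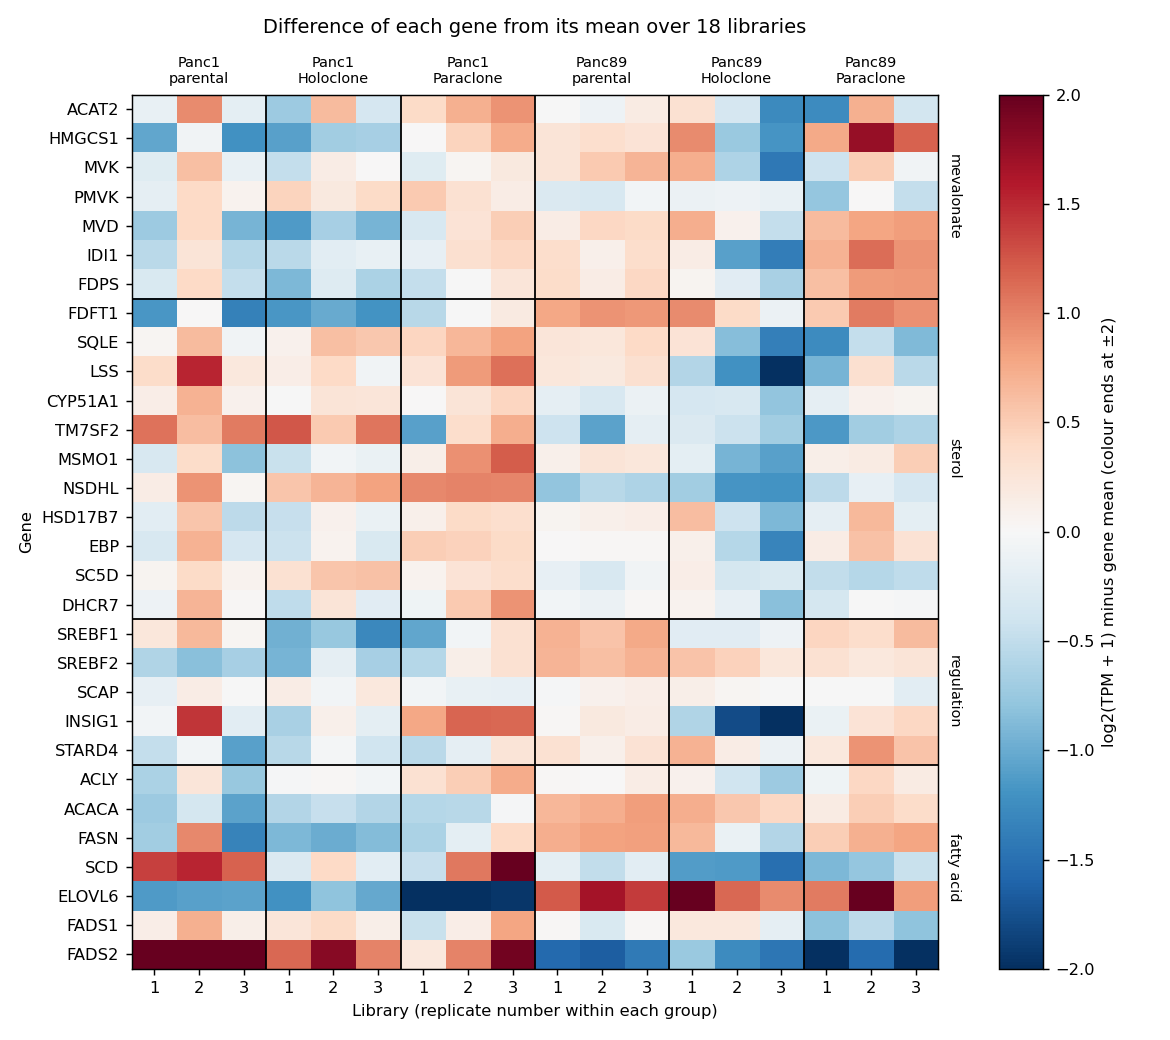
Level of each of the 30 genes in each of the 18 libraries, as the difference in log2(TPM + 1) from the mean of that gene over all libraries, with genes in rows ordered by their role and libraries in columns ordered by group. Colors end at 2 above and below the mean. *FADS2* and, in most libraries, *SCD* were higher in Panc1 and *ELOVL6*, *ACACA* and *FDFT1* higher in Panc89, while many rows were low in Panc89 Holoclone replicates 2 and 3.

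The first comparison asked whether Holoclone and Paraclone cells of the same line differed in these pathways. In Panc1, 8 of the 30 genes (26.7%) were called, 1 higher and 7 lower in the Holoclone cells, whereas 37.3% of all tested genes were called, 27.4% higher and 9.97% lower. In Panc89, 10 of the 30 genes (33.3%) were called, 2 higher and 8 lower, against 35.7% of all genes, of which 22.4% were higher and 13.3% lower. With the values as deposited, the share of called genes was thus below that of all genes in both lines. By direction, 23.3% of the 30 genes were lower in the Panc1 and 26.7% in the Panc89 Holoclone cells. The median log2 fold change over the 30 genes was -0.50 in Panc1 and -0.43 in Panc89, compared with 0.19 and 0.09 over all tested genes. For 20 of the 30 genes, the Holoclone mean lay below the Paraclone mean in Panc1 as well as in Panc89, and for 7 it lay above it in both. This count was not made over all tested genes. Most of the 30 genes also shifted together in single libraries, as described below, so that they are not 30 separate observations. The Panc1 and the Panc89 comparison share no library.

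Both lines had *HMGCS1*, *MSMO1* and *INSIG1* in common among the called genes, which is 37.5% of the 8 called in Panc1 and 30% of the 10 called in Panc89. When 1 library was left out, these 3 calls were kept in 1, 3 and 3 of 6 fits in Panc1, respectively. In Panc89, they were kept in 5, 3 and 6 of 6 fits. *HMGCS1* encodes the cytosolic HMG-CoA synthase, which condenses acetyl-CoA and acetoacetyl-CoA ahead of mevalonate. In Panc1, its level was 5.47, 5.87 and 5.89 in the Holoclone replicates 1 to 3 and 6.57, 7.01 and 7.31 in the Paraclone replicates. The groups did not overlap, and the Holoclone cells were lower by a log2 fold change of -1.22 ± 0.43 (SE; limma, adjusted p = 0.0354). In Panc89, the level was 7.5, 5.82 and 5.39 in the Holoclone replicates and 7.32, 8.31 and 7.75 in the Paraclone replicates. Here, Holoclone replicate 1 reached the Paraclone range and the groups overlapped, with a log2 fold change of -1.55 ± 0.43 (SE; limma, adjusted p = 0.0103).

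*INSIG1* encodes the endoplasmic reticulum protein that holds back the SCAP-SREBP complex and is itself a known SREBP target. In Panc1, its level was 5.04, 5.78 and 5.49 in the Holoclone cells and 6.46, 6.85 and 6.84 in the Paraclone cells. In Panc89, it was 5.08, 3.90 and 3.61 in the Holoclone cells and 5.55, 5.96 and 6.10 in the Paraclone cells. All Holoclone libraries lay below all Paraclone libraries of their line, and *INSIG1* fell to a fold of 0.413 in Panc1 and of 0.314 in Panc89 (limma, adjusted p = 0.0177 and 0.00352). *MSMO1* encodes the C-4 methylsterol oxidase, which starts the removal of the methyl groups at C-4 of the sterol ring. Its level was 5.62, 6.01 and 5.93 in Panc1 Holoclone and 6.19, 6.97 and 7.28 in Panc1 Paraclone cells. In Panc89, the values were 5.87, 5.14 and 4.98 in Holoclone and 6.19, 6.23 and 6.55 in Paraclone cells. Again no Holoclone library reached a Paraclone library, and the log2 fold changes of -0.96 ± 0.30 in Panc1 and -0.99 ± 0.30 in Panc89 (SE; limma, adjusted p = 0.0199 and 0.0173) were close to each other.

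**Figure D2:**
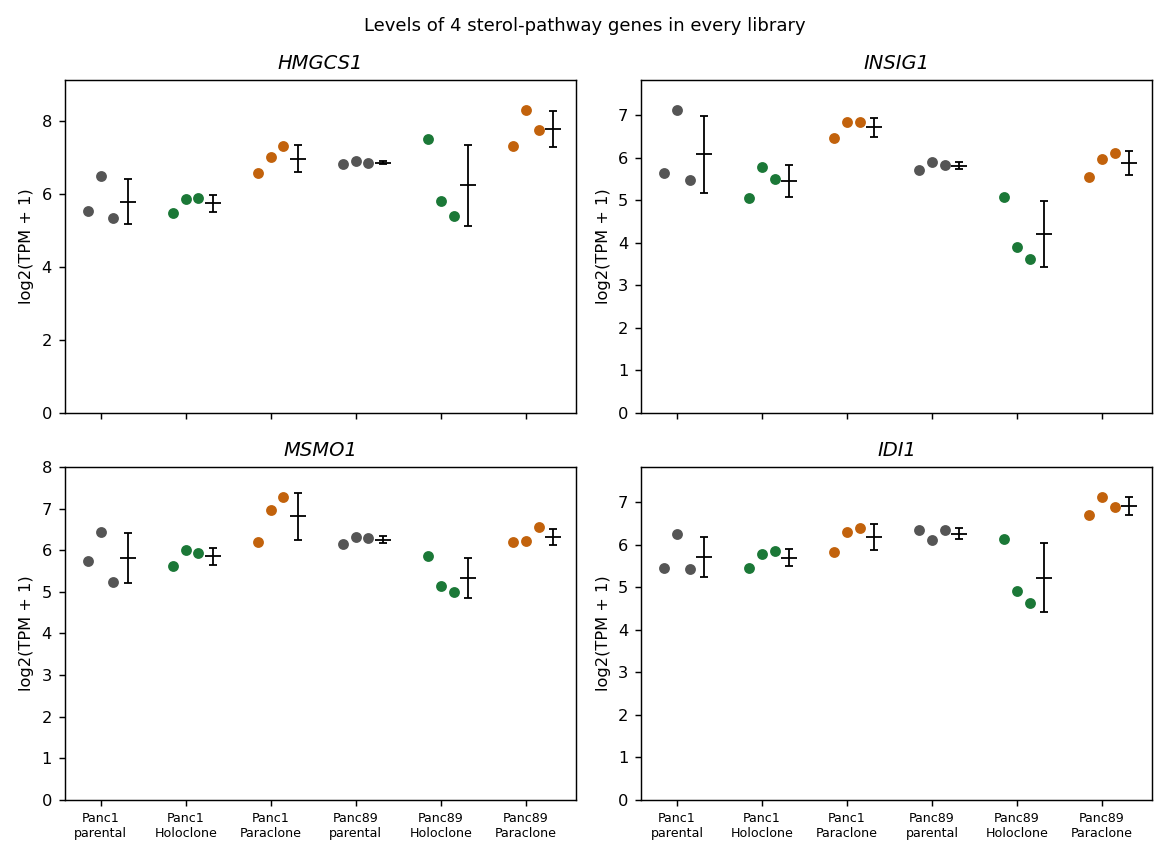
Levels of *HMGCS1*, *INSIG1*, *MSMO1* and *IDI1* as log2(TPM + 1) on the vertical axis for the 6 groups on the horizontal axis, with 1 point per library and the mean and SD of 3 libraries beside the points. In each line, the Holoclone mean lies below the Paraclone mean for all 4 genes, and Panc89 Holoclone replicate 1 is the highest of its group for each of them.

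To show what lies in front of these 3 genes, the promoter windows of RefSeq on GRCh38.p14 are given, each 300 bases long, 250 before and 50 after the annotated transcription start and written 5′ to 3′ on the strand of the gene. Capitals mark CCAAT, the letters bound by NF-Y, a factor known to act together with SREBPs, or ATTGG, which is CCAAT on the other strand.
HMGCS1 (chr5:43313363-43313662, minus strand): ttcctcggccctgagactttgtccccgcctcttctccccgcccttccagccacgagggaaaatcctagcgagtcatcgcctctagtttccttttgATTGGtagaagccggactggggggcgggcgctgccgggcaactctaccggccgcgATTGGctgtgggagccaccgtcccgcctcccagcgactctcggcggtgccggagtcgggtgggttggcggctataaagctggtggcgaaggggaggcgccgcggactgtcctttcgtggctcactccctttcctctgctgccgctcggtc
MSMO1 (chr4:165327419-165327718, plus strand): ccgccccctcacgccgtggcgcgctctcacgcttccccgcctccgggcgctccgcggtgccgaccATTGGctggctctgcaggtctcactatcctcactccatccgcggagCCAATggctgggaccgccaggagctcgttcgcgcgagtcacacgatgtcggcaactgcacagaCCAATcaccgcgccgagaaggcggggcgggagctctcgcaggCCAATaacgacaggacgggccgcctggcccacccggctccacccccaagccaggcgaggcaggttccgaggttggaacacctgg
INSIG1 (chr7:155297628-155297927, plus strand): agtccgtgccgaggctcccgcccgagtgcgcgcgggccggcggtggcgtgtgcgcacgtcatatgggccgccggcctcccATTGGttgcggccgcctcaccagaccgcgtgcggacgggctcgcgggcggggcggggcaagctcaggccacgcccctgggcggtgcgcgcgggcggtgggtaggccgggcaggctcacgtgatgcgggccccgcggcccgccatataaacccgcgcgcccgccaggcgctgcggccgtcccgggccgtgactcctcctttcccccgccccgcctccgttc
These windows held 2, 4 and 1 CCAAT matches, respectively, counted on both strands. Of the 30 genes, 26 had an entry in the promoter table, with 35 start windows, and *SQLE*, *FASN*, *ACAT2* and *FDFT1* had none. CCAAT occurred in 24 of the 35 windows (68.6%) and in at least 1 window of 20 of the 26 genes, compared with 34.6% of all 35116 promoters of this length. Of the sterol regulatory element, only the form TCACNCCAC was searched, on both strands, so that elements with other letters or outside the windows would be missed. This form was present in 1.13% of all promoters and in 1 of the 26 genes, *SREBF2*, where it began 133 bases before the start. This stretch, with the match in capitals, was
SREBF2 (chr22:41832952-41833000, plus strand): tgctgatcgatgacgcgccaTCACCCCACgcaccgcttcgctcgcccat
No CCAAT overlapped this element, and the matches describe the letters of the window and not a bound site.

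Among the remaining mevalonate enzymes, *IDI1*, which isomerizes isopentenyl diphosphate, fell in the Panc89 Holoclone cells. Its level there was 6.14, 4.91 and 4.62, compared with 6.70, 7.12 and 6.90 in the Panc89 Paraclone cells. The groups did not overlap and the fold was 0.311 (log2 fold change -1.68 ± 0.31, SE; limma, adjusted p = 0.000630). In Panc1, *IDI1* was at 5.46, 5.79 and 5.85 in Holoclone and 5.84, 6.31 and 6.41 in Paraclone cells, and the groups overlapped by a small margin (log2 fold change -0.49, adjusted p = 0.252 by limma). *IDI1* was the only one of the 30 genes whose Holoclone against Paraclone difference was itself called different between the lines, with -1.20 ± 0.44 for Panc89 minus Panc1 (SE; limma, adjusted p = 0.0473). Over all genes, 35.1% were called in this test, 14.8% with a higher and 20.4% with a lower value in Panc89. The call of *IDI1* was kept in 2 of 12 fits that each left out 1 library. It was lost with no filter on low values, with median-of-ratios scaling, with no trend and with the groups compared alone (limma, adjusted p = 0.0508 to 0.0889). A block for the replicate number also removed this call.

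*FDPS*, which forms farnesyl diphosphate, was at 8.39, 8.10 and 7.69 in the Panc89 Holoclone cells and at 8.93, 9.18 and 9.20 in the Panc89 Paraclone cells. It fell without overlap by 1.04 on the log2 scale (limma, adjusted p = 0.00311), whereas in Panc1 its log2 fold change was -0.52 (adjusted p = 0.107 by limma). *MVD*, the mevalonate diphosphate decarboxylase, fell in the Panc1 Holoclone cells, at 5.61, 6.07 and 5.80 against 6.42, 7.01 and 7.24 in the Paraclone cells. Its log2 fold change was -1.06 in Panc1 (limma, adjusted p = 0.0167) and -0.64 in Panc89, the latter without a call. For *ACAT2*, which makes acetoacetyl-CoA, and the mevalonate kinase *MVK*, the Holoclone mean was lower in both lines, with log2 fold changes of -0.80 and -0.10 in Panc1 and -0.13 and -0.45 in Panc89, respectively. The phosphomevalonate kinase *PMVK* had values of 0.02 and 0.29. None of these 3 genes passed the test in either line.

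Of the 11 genes of the sterol branch, 2 fell in Panc1 and 4 in Panc89 Holoclone cells, and none rose. This is 18.2% and 36.4% of the branch, compared with 9.97% and 13.3% of all tested genes called lower. Besides *MSMO1*, this was *FDFT1*, the squalene synthase, in Panc1. It was at 5.66, 5.82 and 5.64 in Holoclone and 6.28, 6.82 and 7.01 in Paraclone cells of Panc1, a fold of 0.501 (limma, adjusted p = 0.0196). Its log2 fold change in Panc89 was -0.42 without a call. In Panc89, *EBP*, the sterol isomerase, was at 6.32, 5.66 and 4.90 in Holoclone and at 6.37, 6.81 and 6.52 in Paraclone cells, where the highest Holoclone library lay just under the lowest Paraclone library (log2 fold change -0.94; limma, adjusted p = 0.0227). *NSDHL*, a sterol dehydrogenase acting after *MSMO1*, and *CYP51A1*, the lanosterol demethylase, fell by 0.68 and by 0.47 on the log2 scale in Panc89 (limma, adjusted p = 0.0116 and 0.0448). In Panc1, these last 3 genes had log2 fold changes of -0.67, -0.29 and -0.07 without a call.

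The other genes of the branch did not pass the test in either line. *LSS*, which cyclizes squalene epoxide to lanosterol, was at 4.53, 3.90 and 2.49 in the Panc89 Holoclone cells and 4.18, 5.44 and 4.57 in the Panc89 Paraclone cells. These overlapping groups differed by -1.09 on the log2 scale (limma, adjusted p = 0.0733). *HSD17B7* and *DHCR7*, a ketosteroid reductase and the last reductase of the branch, had log2 fold changes of -0.44 and -0.61 in Panc1 and -0.32 and -0.18 in Panc89. *SQLE*, the squalene epoxidase, had -0.23 in Panc1 and 0.23 in Panc89. On the other side of 0 were the sterol reductase *TM7SF2* with 0.95 and 0.34 and the desaturase *SC5D* with 0.25 and 0.35.

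Among the regulators, *SREBF1* and *SREBF2*, which encode the SREBP factors, fell in the Panc1 Holoclone cells. *SREBF1* was at 6.46, 6.67 and 6.14 in Holoclone and 6.39, 7.38 and 7.73 in Paraclone cells of Panc1, so that Paraclone replicate 1 lay within the Holoclone range (log2 fold change -0.74; limma, adjusted p = 0.0306). *SREBF2* was at 6.01, 6.76 and 6.27 against 6.37, 7.05 and 7.24, also with overlap (log2 fold change -0.54; limma, adjusted p = 0.0444). In Panc89, *SREBF1* was at 7.20, 7.20 and 7.33 in Holoclone and 7.85, 7.78 and 8.07 in Paraclone cells. These groups did not overlap, but the difference of -0.66 missed the threshold (limma, adjusted p = 0.0556). *SREBF2* did not fall in Panc89, with a mean of 7.36 in Holoclone and 7.20 in Paraclone cells, with overlap and without a call. *SCAP*, the escort protein, and *STARD4*, a sterol carrier, differed by 0.22 and -0.18 in Panc1 and by 0.12 and -0.32 in Panc89 without a call.

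Of the 7 fatty acid genes, 1 was higher in the Panc1 and 2 were higher in the Panc89 Holoclone cells, and none was called lower. This is 14.3% and 28.6%, compared with 27.4% and 22.4% of all tested genes called higher. *ELOVL6*, the elongase of palmitate, was at 2.77, 3.19 and 2.97 in Panc1 Holoclone and at 1.93, 1.94 and 2.04 in Panc1 Paraclone cells. It rose 2.01-fold without overlap (limma, adjusted p = 0.0123), and this was the only one of the 8 calls in Panc1 that was kept in all 6 fits without 1 library. In Panc89, *ELOVL6* had a log2 fold change of 0.11. The desaturases *FADS1* and *FADS2*, which introduce double bonds into polyunsaturated fatty acids, rose in the Panc89 Holoclone cells. *FADS1* was at 6.89, 6.89 and 6.51 in Holoclone and 5.86, 6.16 and 5.88 in Paraclone cells, and *FADS2* at 5.44, 4.92 and 4.73 against 3.57, 4.64 and 3.69. Neither gene overlapped between the groups, with folds of 1.74 and 2.09 (limma, adjusted p = 0.0173 and 0.0466), and the calls were kept in 2 and 1 of 6 fits without 1 library, respectively. In Panc1, their log2 fold changes were 0.09 and 0.27.

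The 4 remaining genes of this branch were not called. *FASN*, the fatty acid synthase, had a log2 fold change of -0.78 in Panc1 and -0.69 in Panc89, and *ACLY*, which supplies cytosolic acetyl-CoA, had -0.54 and -0.51. *SCD*, the stearoyl-CoA desaturase and the most abundant of the 30 transcripts in every Panc1 library, was at 8.91, 9.59 and 8.98 in Panc1 Holoclone and at 8.73, 10.26 and 11.42 in Panc1 Paraclone cells. The Paraclone libraries thus enclosed all Holoclone libraries, and the difference of -0.98 was not called (limma, adjusted p = 0.0918). *ACACA*, the acetyl-CoA carboxylase, had -0.16 in Panc1 and 0.22 in Panc89.

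**Figure D3:**
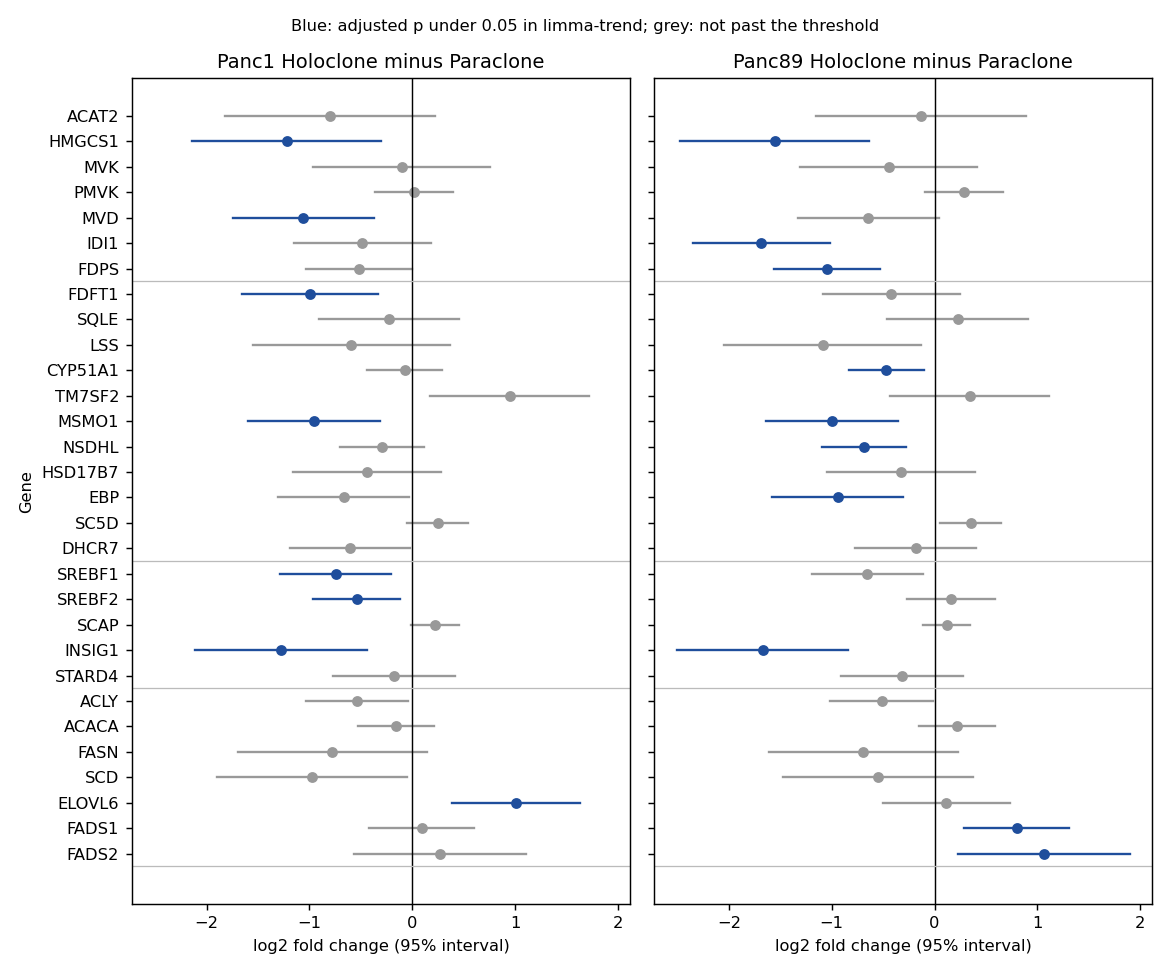
Log2 fold change of Holoclone against Paraclone cells for each of the 30 genes on the horizontal axis, in Panc1 and Panc89, with the 95% confidence interval of limma, blue for called genes and grey for the others. Most sterol genes lie left of 0 in both lines, and the called genes right of 0 are *ELOVL6* in Panc1 and *FADS1* and *FADS2* in Panc89.

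The libraries of the groups did not overlap for 11 of the 30 genes in Panc1 and for 12 in Panc89, compared with 51.3% and 40.8% of all tested genes. In Panc1, only *ELOVL6* was called without Holoclone replicate 1 or without Paraclone replicate 2. Without Holoclone replicate 3, 1 gene was called higher and 3 lower, and without Paraclone replicate 3, 2 were called higher. No gene was thus called lower in 3 of the 6 fits without 1 library. Of all genes, 29.6% to 36.1% were called over the 6 fits in Panc1 and 28.3% to 41.0% over those in Panc89. In Panc89, 6, 5 and 5 genes were called without Holoclone replicate 2, Holoclone replicate 3 and Paraclone replicate 3, and *IDI1*, *FDPS* and *INSIG1* were called in each of the 6 fits without 1 library, whereas no gene was called higher in 3 of these fits, those without Holoclone replicate 1, Paraclone replicate 1 or Paraclone replicate 3. Since the median of all genes lay at 0.19 in Panc1, upper quartile scaling, which moved it to 0.00364, raised the number of called genes to 14 of 30, of which 13 were lower in the Holoclone cells, against 31.9% of all genes called. With median-of-ratios scaling, 15 of 30 genes and 31.6% of all genes were called, so that with either scaling the share was above that of all genes.

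The spread between passages of the same cells differed from group to group. In the parental Panc1 cells, the median SD of the 30 genes over the 3 libraries was 0.468 on the log2 scale, compared with 0.182 for all tested genes. In the Panc89 Holoclone cells, it was 0.443 against 0.217, and in the Panc1 Paraclone cells 0.337 against 0.167. The values were 0.234 against 0.155 in the Panc1 Holoclone cells and 0.227 against 0.218 in the Panc89 Paraclone cells, where 16 of the 30 genes lay above the median of all genes. In the parental Panc89 cells, by contrast, it was 0.0983 against 0.128.

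In the 3 groups with the largest spread, most of the 30 genes were shifted to the same side in the same library. In the parental Panc1 cells, replicate 2 had the highest level of the 3 libraries for 27 of the 30 genes, while this library was the highest for 41.4% of all tested genes. *FASN* was at 7.16, 8.82 and 6.53 in the parental Panc1 replicates 1 to 3 and *INSIG1* at 5.64, 7.12 and 5.48, so that replicate 2 was the high library for both. *TM7SF2* and *SREBF2* were lowest in replicate 2, with 6.38, 5.92 and 6.34 and with 6.33, 6.10 and 6.27, respectively. In the Panc89 Holoclone cells, replicate 1 was highest for 26 genes, against 59.9% of all genes, and replicate 3 lowest for 28, against 43.1% of all genes. *LSS*, *MVK* and *HMGCS1* differed 4.12-fold, 4.46-fold and 4.34-fold between the highest and the lowest library of this group, whereas *PMVK* differed 1.03-fold and *SREBF1* 1.09-fold. In the Panc1 Paraclone cells, replicate 3 was highest for 24 genes, against 37.1% of all genes, and replicate 1 lowest for 27, against 39.4%. *SCD* spanned 6.42-fold in this group.

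Cell cycle transcripts also differed between passages. The median of 10 cell cycle genes, such as *MKI67* and *TOP2A*, deviated from its group mean to the same side as the median of the 30 genes in 12 of 18 libraries. In parental Panc1 replicate 2, the deviation was 0.53 for the 30 genes and 0.66 for the cell cycle genes, and in Panc89 Holoclone replicates 1 and 3 it was 0.44 and 1.00 and then -0.37 and -0.68. In the Panc1 Paraclone cells, the sides were opposite, with -0.37 against 0.98 in replicate 1 and 0.31 against -0.91 in replicate 3. Between Holoclone and Paraclone cells, none of the 10 cell cycle genes was called by limma in either line, with 1 in each line at an unadjusted p under 0.05 and medians of 0.59 in Panc1 and 0.73 in Panc89. The part of proliferation in these differences was not tested.

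**Figure D4:**
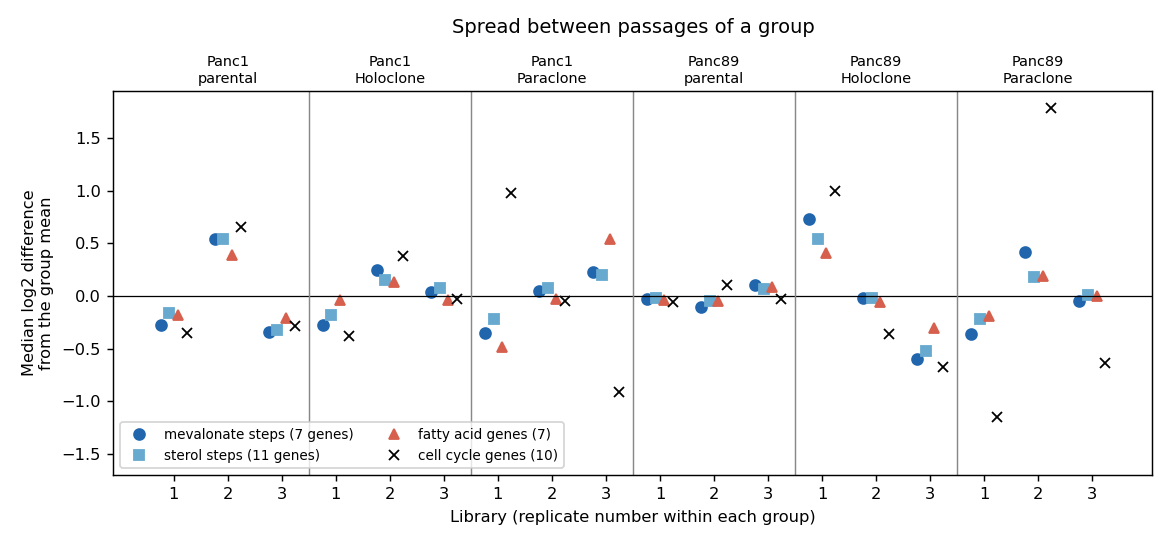
Median difference of the 7 mevalonate, 11 sterol and 7 fatty acid genes and of 10 cell cycle genes from their own group mean, in log2(TPM + 1) on the vertical axis, for each of the 18 libraries on the horizontal axis. The 3 pathway medians lie close together in parental Panc1 replicate 2, above 0, and in Panc1 Paraclone replicates 1 and 3 they lie on the other side of 0 than the cell cycle genes, at 0.98 and -0.91.

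The next comparison asked how the parental lines differ. Between the parental Panc89 and parental Panc1 cells, 13 of the 30 genes (43.3%) were called, 7 higher and 6 lower in Panc89, compared with 66.0% of all tested genes, 27.5% higher and 38.5% lower. The libraries did not overlap for 13 of the 30 genes, compared with 73.3% of all genes. The median log2 fold change was 0.12 over the 30 genes and -0.18 over all genes. By branch, 5 of 7 fatty acid genes, 5 of 11 sterol genes, 2 of 5 regulators and carriers and 1 of 7 mevalonate genes were called.

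*FADS2* was at 8.32, 9.31 and 8.50 in the parental Panc1 and at 4.62, 4.52 and 4.76 in the parental Panc89 replicates. This corresponds to a mean of 8.71 ± 0.53 and 4.64 ± 0.12 (SD, n = 3), respectively, and to the largest difference among the 30 genes in this comparison, a log2 fold change of -4.07 ± 0.39 (SE; limma, adjusted p = 1.98e-07). *ELOVL6* showed the opposite, with 2.85, 2.90 and 2.92 in parental Panc1 and 5.22, 5.65 and 5.39 in parental Panc89 cells. It was 5.78-fold higher in Panc89 (limma, adjusted p = 1.41e-06). *SCD* was lower in Panc89, at 9.0, 8.71 and 8.99 against 10.57, 10.72 and 10.38 in Panc1, with a fold of 0.317 (limma, adjusted p = 0.00330).

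*ACACA* was higher in Panc89, at 6.19, 6.26 and 6.37 against 4.79, 5.17 and 4.46, with a fold of 2.76 (limma, adjusted p = 2.01e-06). *FASN* was at 8.59, 8.67 and 8.69 in Panc89, while parental Panc1 replicate 2, at 8.82, lay above all of them and the other 2 at 7.16 and 6.53. Its log2 fold change of 1.15 was called (limma, adjusted p = 0.0286) but was kept in 1 of 6 fits without 1 library. *FADS1* did not overlap between the lines, with 6.71, 6.37 and 6.71 in Panc89 and 6.82, 7.39 and 6.79 in Panc1, but missed the threshold with -0.40 (limma, adjusted p = 0.156). *ACLY* had a log2 fold change of 0.44 without a call.

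*FADS1* and *FADS2* lie on opposite strands of chromosome 11, with 599 bases between the starts shown here, and from these starts each is read across the start of the other. Their promoter windows from RefSeq on GRCh38.p14 are given because the parental cells of the lines differed in *FADS2* and not by the test in *FADS1*, with CCAAT in capitals.
FADS1 (chr11:61816954-61817253, minus strand): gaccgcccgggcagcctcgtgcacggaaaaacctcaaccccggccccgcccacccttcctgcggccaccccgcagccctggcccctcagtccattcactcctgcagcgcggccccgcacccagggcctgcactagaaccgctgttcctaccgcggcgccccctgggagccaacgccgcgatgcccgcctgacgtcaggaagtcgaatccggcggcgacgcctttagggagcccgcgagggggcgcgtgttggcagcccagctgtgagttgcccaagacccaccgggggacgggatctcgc
FADS2 (chr11:61816154-61816453, plus strand): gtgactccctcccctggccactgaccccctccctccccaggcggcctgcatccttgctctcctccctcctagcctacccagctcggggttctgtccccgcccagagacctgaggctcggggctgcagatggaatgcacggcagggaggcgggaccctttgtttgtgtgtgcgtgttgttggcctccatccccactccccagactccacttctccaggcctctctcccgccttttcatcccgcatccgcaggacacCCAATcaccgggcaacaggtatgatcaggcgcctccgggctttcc
The *FADS1* window held no CCAAT on either strand and the *FADS2* window held 1, which lies just after the start. The RefSeq table held a second start for *FADS2*. The annotated exons of both genes share 490 bases on opposite strands. The libraries were made with a kit that keeps the strand, but whether the quantification used it is not given in the sources used here, so that the assignment of transcripts from these bases is uncertain.

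**Figure D5:**
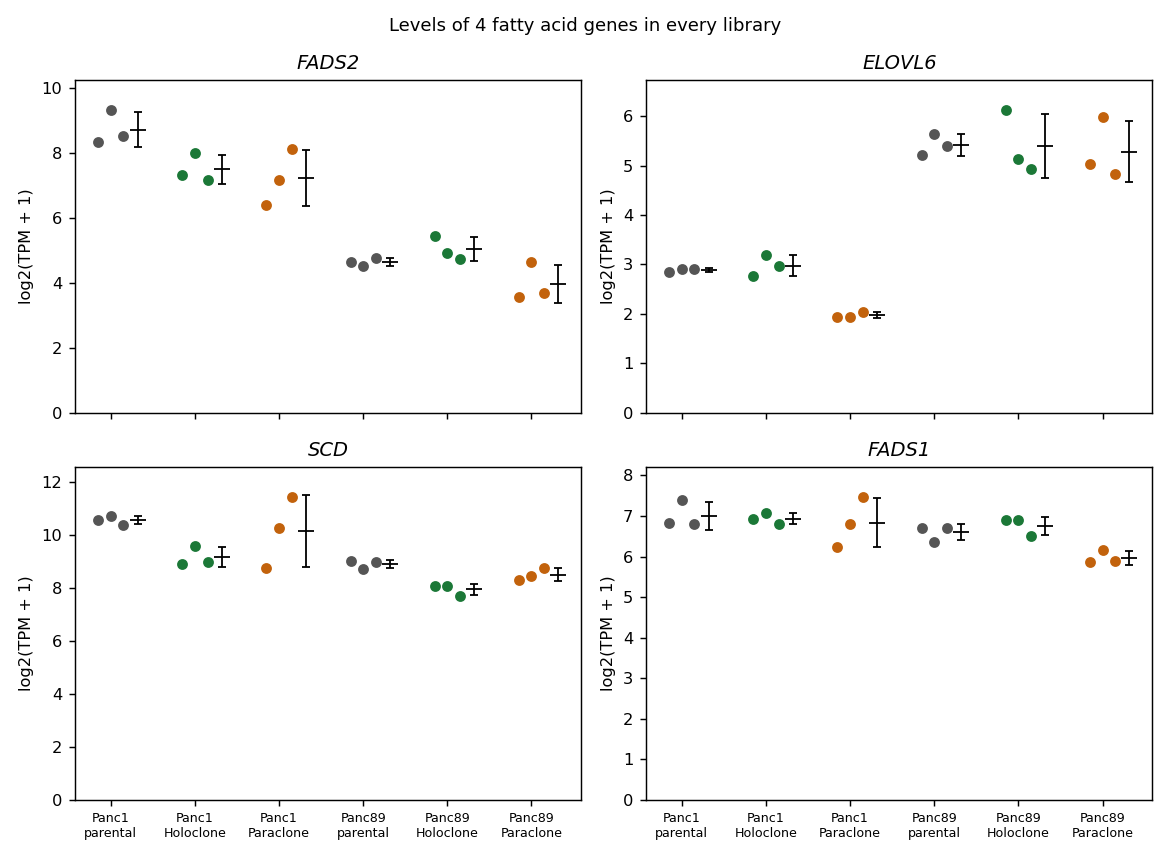
Levels of *FADS2*, *ELOVL6*, *SCD* and *FADS1* as log2(TPM + 1) on the vertical axis for the 6 groups on the horizontal axis, with 1 point per library and the mean and SD of 3 libraries beside the points. All Panc1 libraries lie above all Panc89 libraries for *FADS2* and below them for *ELOVL6*, and the Panc1 Paraclone libraries of *SCD* are the most spread.

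In the sterol branch, *FDFT1* was higher in the parental Panc89 cells, with 7.60, 7.73 and 7.70 against 5.66, 6.84 and 5.47 in the parental Panc1 cells and a fold of 3.22 (limma, adjusted p = 0.000191). Lower in Panc89 were *TM7SF2*, with 4.88, 4.24 and 5.11 against 6.38, 5.92 and 6.34, and *NSDHL*, with 4.37, 4.59 and 4.54 against 5.29, 6.05 and 5.19. Neither gene overlapped between the lines, and the log2 fold changes were -1.47 and -1.01 (limma, adjusted p = 0.00216 and 0.000249). *CYP51A1* and *SC5D* were lower by smaller amounts, -0.51 and -0.35, and neither was called after upper quartile scaling, which gave -0.31 and -0.15 (limma, adjusted p = 0.111 and 0.308).

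Of the regulators, *SREBF2* was higher in Panc89, at 7.61, 7.54 and 7.63 against 6.33, 6.10 and 6.27, with a fold of 2.56 (limma, adjusted p = 1.98e-05). *STARD4* was 1.70-fold higher and *HMGCS1* 2.10-fold higher in Panc89 (limma, adjusted p = 0.0237 and 0.0387), the latter with 1 call in 6 fits without 1 library. *SREBF1* had a log2 fold change of 0.37 and *INSIG1* of -0.27, both without a call. The other 13 uncalled genes ranged from -0.45 for *LSS* to 0.74 for *MVD*. Upper quartile scaling moved the median of all genes from -0.18 to -0.01. With it, 12 of the 30 genes were called higher and 4 lower in Panc89, against 65.5% of all genes called in either direction. The split of all genes by direction was not counted with this scaling.

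The same lines were compared as Holoclones and as Paraclones, which use different libraries. Between the Holoclone cells, 16 of the 30 genes were called, 6 higher and 10 lower in Panc89, against 65.8% of all genes, 29.3% higher and 36.4% lower. Between the Paraclone cells, 14 were called, 6 higher and 8 lower, against 60.7% of all genes, 30.2% higher and 30.4% lower. *FDFT1*, *ACACA* and *ELOVL6* were higher in Panc89 in all 3 comparisons of the lines, and *NSDHL*, *SC5D*, *SCD* and *FADS2* were lower in all 3. The parental call of *SC5D* was kept in 3 of 6 fits without 1 library and was lost with upper quartile scaling. For *ELOVL6*, the log2 fold change was 2.53 between the parental cells, 2.42 between the Holoclone cells and 3.32 between the Paraclone cells. For *FADS2*, it was -4.07, -2.47 and -3.26, respectively. The mean of *FADS1* was 6.84 in the Panc1 Paraclone and 5.97 in the Panc89 Paraclone cells. *SQLE* and *LSS* were called lower in Panc89 between the Holoclone cells, with -1.06 and -1.63, and between the Paraclone cells, with -1.51 and -1.13, while their values between the parental cells were 0.08 and -0.45. The clones were not tested for whether these differences are themselves different from those of the parental cells.

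Finally, the clones were set against the parental cells of their own line. These comparisons share libraries with those above and are no separate evidence. In Panc1 Holoclone cells, 1 gene was called lower and none higher, against 10.9% of all genes, 5.87% higher and 5.06% lower. This was *SREBF1*, which was at 6.46, 6.67 and 6.14 against 7.66, 8.08 and 7.46 in the parental cells and fell to a fold of 0.403 (limma, adjusted p = 0.00287). In Panc1 Paraclone cells, 6 genes were called, 4 higher and 2 lower, against 28.6% of all genes, 7.31% higher and 21.3% lower. *MSMO1*, *NSDHL*, *SREBF2* and *ACLY* were higher than in the parental cells, with log2 fold changes of 1.01, 0.61, 0.65 and 0.90, and *ELOVL6* and *FADS2* were lower, with -0.92 and -1.49. *FADS2* was at 6.39, 7.16 and 8.11 in the Paraclone cells and at 8.32, 9.31 and 8.50 in the parental cells.

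In Panc89 Holoclone cells, 6 genes were called, all 6 lower than in the parental cells, against 24.7% of all genes, 16.1% higher and 8.61% lower. These were *LSS* with a log2 fold change of -1.72, *INSIG1* with -1.61, *IDI1* with -1.04, *SQLE* with -0.94, *MSMO1* with -0.93 and *SREBF1* with -0.86. *INSIG1* was at 5.08, 3.90 and 3.61 in the Holoclone and at 5.71, 5.89 and 5.83 in the parental cells, without overlap. In Panc89 Paraclone cells, 1 gene was called lower, against 19.4% of all genes, 9.37% higher and 10% lower. This was *SQLE*, at 4.63, 5.41 and 5.0 against 6.12, 6.12 and 6.28 in the parental cells, with a fold of 0.447 (limma, adjusted p = 0.0180).

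These counts rest on few libraries. Without parental Panc1 replicate 2, the library that was high in most of the 30 genes, 3 genes were called in the Panc1 Holoclone cells, and without Holoclone replicate 2, 2 genes. For the Panc1 Paraclone cells, 2, 1 and 2 genes were called without parental replicate 1, parental replicate 3 and Paraclone replicate 2. For the Panc89 Holoclone cells, 10 genes were called without Holoclone replicate 1 and 2 genes each without Holoclone replicate 2, Holoclone replicate 3, parental replicate 1 or parental replicate 3. For the Panc89 Paraclone cells, no gene was called without parental replicate 3, Paraclone replicate 1 or Paraclone replicate 3. Of all genes, 6.59% to 9.76% were called over the 6 fits in Panc1 Holoclone and 19.5% to 26.9% in Panc1 Paraclone cells. The shares were 18.5% to 26.8% in Panc89 Holoclone and 13.1% to 26.4% in Panc89 Paraclone cells.

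Further genes of the same pathways were taken from fixed lists of named pathway genes, to be read against the 27.4% higher and 9.97% lower calls among all tested genes in Panc1 and the 22.4% higher and 13.3% lower calls in Panc89. Of 11 tested genes of mevalonate and sterol synthesis outside the 30, 1 was higher and 2 were lower in the Panc1 Holoclone cells and 3 were lower in the Panc89 Holoclone cells than in the Paraclone cells. Of 8 tested genes of SREBP regulation, such as the SREBP proteases, 4 were higher in the Panc1 and 5 higher in the Panc89 Holoclone cells, and none was lower. Of 24 tested genes of fatty acid synthesis, 3 were higher and 6 lower in Panc1 and 5 higher and 8 lower in Panc89. Of 16 tested genes of sterol uptake, storage and export, 5 were higher and 4 lower in Panc1, and 5 were higher and 5 lower in Panc89.

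The cytosolic acetyl-CoA synthetase *ACSS2* was lower in the Panc1 and in the Panc89 Holoclone cells, with a mean of 23.8 TPM against 71.7 TPM in Panc1 and 35.1 TPM against 188 TPM in Panc89. Its log2 fold changes were -1.46 and -2.37 (limma, adjusted p = 0.00525 and 0.000120). *SCD5*, a second stearoyl-CoA desaturase, had a mean of 8.87 TPM in Panc1 Holoclone and 0.667 TPM in Panc1 Paraclone cells, a log2 fold change of 2.56 (limma, adjusted p = 1.84e-05). The lipoprotein receptor *LRP8* was lower in the Panc1 Holoclone cells, at 4.80 TPM against 29.6 TPM, with a log2 fold change of -2.42 (limma, adjusted p = 2.65e-05), and the cholesterol exporter *ABCA1* was at 0.215 TPM against 3.54 TPM, with -1.90 (limma, adjusted p = 8.02e-06). In the Panc89 Holoclone cells, the lysosomal sterol carrier *NPC2* was at 96.0 TPM against 382 TPM (log2 fold change -2.07), and *STARD5*, another sterol carrier, at 6.63 TPM against 0.706 TPM (log2 fold change 2.16), both called by limma (adjusted p = 4.55e-06 and 3.39e-05). The exporter *ABCG1* had a log2 fold change of 1.85 and the cholesterol 25-hydroxylase *CH25H* of 1.54 in this comparison, both with overlap between the groups.

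Between the parental cells, *ABCG1* had a mean of 20.8 TPM in Panc89 and 0.304 TPM in Panc1, *OXSM*, a mitochondrial fatty acid synthase enzyme, 17.1 TPM and 0.337 TPM, and *CH25H* 2.56 TPM and 0.0156 TPM. Their log2 fold changes were 4.06, 3.77 and 1.78 (limma, adjusted p = 1.99e-06, 7.82e-11 and 0.000481). *ELOVL2*, an elongase of polyunsaturated fatty acids, was listed at 0 in all 3 parental Panc89 libraries and had a mean of 22.2 TPM in the parental Panc1 cells. Of the 24 other fatty acid genes, 16 (66.7%) were called between the parental lines, 9 higher and 7 lower in Panc89, compared with 66.0% of all tested genes.

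For some of the 30 genes, annotated exons overlap those of other genes. The largest overlap with a single gene on the same strand covered 68.2% of the exonic bases of *CYP51A1* and 36.4% of *EBP*. On the opposite strand, it covered 37.7% of *HMGCS1*, 18.6% of *FDPS*, 17.2% of *ACAT2* and 15.0% of *IDI1*. Their levels are uncertain to the extent that the quantification could divide transcripts between these genes. Pseudogene copies were searched only by symbol, as the symbol of 1 of the 30 genes followed by P and a number. These were near 0, with at most 1.14 TPM for *HSD17B7P2*.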

How the data were processed

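RNA of 3 passages of each of 6 cell variants was sequenced, giving 18 libraries. The values were deposited by the authors as 1 table of log2(TPM + 1) per gene symbol, for which transcript abundances had been estimated with kallisto 0.46.1 according to the submitters' processing notes, and the TPM sums of 985339 to 988066 per library show that the log scale reverses to TPM. Read counts and sequencing depth are not in this unit, so that the precision rests on the 3 libraries per group only. The library kit keeps the strand, but whether kallisto was run with a strand setting is not given in the sources used here.

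Genes that reached 1 TPM in 3 or more libraries were kept, and limma 3.58.1 with a mean-variance trend was fitted in R 4.3.3 to all 18 libraries with 1 mean per group. The p-values of each of 10 comparisons were adjusted by the Benjamini-Hochberg method over the 16093 genes, with 0.05 as the threshold. The procedure was tested on simulated data with independent noise for each gene, which did not hold the shifts shared by many genes of a library. A fold change on the log2(TPM + 1) scale understates the change of low genes.

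The 30 genes, the gene lists and the comparisons were chosen with earlier results of these data known. Each of the 30 genes is named. Of the other pathway genes, those called with an absolute log2 fold change of at least 1 between Holoclone and Paraclone or between parental cells were named, up to 10 by size. Alternatives were a pseudocount of 0.1, no filter or at least 5 TPM, other scalings, removal of mitochondrial genes, limma with no trend, fits of the compared groups alone, a block for the replicate number, a minimum log2 fold change of 1 and leaving out each library. Libraries with the same number did not deviate together (r of -0.318 to 0.190 over 18 pairs) and were not treated as paired. Promoter windows came from RefSeq (GRCh38.p14) and exon overlaps from GENCODE 44 on GRCh38.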

Additional observations from a re-analysis of the deposited data

Results flagged for a closer look

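Of the 30 genes and the 10 other pathway genes named above, 7 had a Holoclone against Paraclone difference that the direct test called different between the lines (limma interaction term, Panc89 minus Panc1, on the log2 scale). Of all tested genes, 35.1% were called in this test. The 10 other genes had been named for the size of their called differences in these same data, so that the 7 cannot be read against this share. Of the tested genes of the lists, these calls were 1 of 30, 2 of 11 other mevalonate and sterol genes, 4 of 8 other SREBP regulation genes, 10 of 24 other fatty acid genes and 7 of 16 genes of sterol uptake, storage and export. For *IDI1*, the value was -1.20 (adjusted p = 0.0473), with -0.49 in Panc1 and -1.68 in Panc89. For *NPC2*, it was -3.02 (adjusted p = 3.54e-06), with 0.95 in Panc1 and -2.07 in Panc89, so that this sterol carrier was called in opposite directions. For *SCD5*, it was -3.38 (adjusted p = 3.96e-05), with 2.56 in Panc1 and -0.82 in Panc89, of which the latter was not called. For *STARD5*, it was 2.29 (adjusted p = 0.000483), with -0.13 and 2.16. For *LRP8*, it was 1.82 (adjusted p = 0.00531), with -2.42 and -0.60. For *CH25H*, it was 1.71 (adjusted p = 0.0181), with -0.16 and 1.54, and its mean in the Panc1 groups was at most 0.131 TPM. For *ABCA1*, it was 1.3 (adjusted p = 0.00449), with -1.90 and -0.60.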

How the results depend on the processing

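The values below are numbers of the 30 genes called. For comparisons within a line, the shares of all genes called in the fits without 1 library are given above. For Panc1 Holoclone against Paraclone cells, 5 were called with no filter on low values, 4 with a log2 fold change over 1, 14 with upper quartile and 15 with median-of-ratios scaling, and 1 to 11 without 1 library. For Panc89 Holoclone against Paraclone cells, 6 were called when the groups were compared alone, 5 with a log2 fold change over 1 and 5 to 12 without 1 library. The difference of this change between the lines gave 0 calls with no filter, with the replicate block, with no trend and with the groups alone, 2 with upper quartile scaling and 0 to 3 without 1 library, and 3 genes had an unadjusted p under 0.05 in limma. Panc89 against Panc1 Paraclone cells gave 6 with a log2 fold change over 1. Panc1 Holoclone against parental cells gave 2 with at least 5 TPM, with either scaling and with the groups alone, and 1 to 3 without 1 library. Panc1 Paraclone against parental cells gave 1 with the groups alone, 2 with a log2 fold change over 1 and 1 to 9 without 1 library. Panc89 Holoclone against parental cells gave 3 with a log2 fold change over 1 and 2 to 10 without 1 library. Panc89 Paraclone against parental cells gave 5 with the groups alone and 0 to 1 without 1 library. The causes were not tested, except that fits without 1 library and with the groups alone hold fewer libraries.

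Scaling changed the split between higher and lower calls. For the parental lines, 7 higher and 6 lower became 12 and 4 with upper quartile and 13 and 4 with median-of-ratios scaling. Of all genes, 65.5% and 65.3% were called with these scalings, respectively. For the Holoclone cells of the lines, 6 and 10 became 8 and 8 with median-of-ratios scaling, and for the Panc1 Paraclone against parental cells, 4 and 2 became 8 and 1. With median-of-ratios scaling, 65.1% of all genes were called in the former and 23.6% in the latter comparison. The split of all genes by direction was not counted with either scaling. With the replicate block, 7 genes were called in Panc1 and 10 in Panc89 between Holoclone and Paraclone cells, and apart from the difference between the lines no count moved by over 1.5 times. Of 1980 values of single genes in 4 comparisons, 1809 kept their side of the threshold. These include 74 values called in neither fit that changed sign. Another 109 values lost and 62 gained a call, and none that was called in either fit changed sign. Only genes called in the main fit could lose a call, which were 8, 10, 13 and 1 of the 30 genes in the 4 comparisons.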
